A study of Mus musculus with 6 samples.

Results

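The genes described here are those of the proteasome, the protease that degrades ubiquitin-tagged proteins. They were chosen by gene symbol, as every symbol that starts with Psma to Psmg followed by a digit in the platform annotation. The rule found 49 genes on 86 probes, of 19057 named genes on 45281 probes. Expression was measured on Illumina mouse bead arrays in total RNA of 6 samples, 3 from the IL-17-producing hybridoma S2 and 3 from the IL-17-non-producing hybridoma DE3. A hybridoma is an immortal line obtained by fusion of a lymphocyte and a tumour cell. Both were grown in RPMI medium with fetal calf serum, and the labels give no treatment, strain or fusion partner. Every sample of a group has the same clone name, which makes this a comparison of 2 lines, and nothing in the labels says whether the replicates were separate cultures. The p-values thus rest on how far these 6 samples varied, and that variation could be purely technical. In RNA from whole cultures, fewer cells expressing a gene and less RNA per cell cannot be told apart.

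The proteasome has a barrel-shaped 20S core, built of rings of alpha subunits (Psma genes) and rings of beta subunits (Psmb genes), and a 19S cap that recognises, unfolds and feeds in the substrate (Psmc ATPases and Psmd subunits). The proteolytic sites sit on the beta subunits encoded by Psmb5, Psmb6 and Psmb7. In immune cells, and in other cells exposed to interferon-γ, newly built cores can carry Psmb8 in place of Psmb5, Psmb9 in place of Psmb6 and Psmb10 in place of Psmb7. This form is the immunoproteasome, which is known for cutting peptides for MHC class I molecules, and the cap PA28, made of Psme1 and Psme2, is induced with it.

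The promoters of Psmb9, Psmb8 and Psmb5 are shown because Psmb9 and Psmb8 had the largest increases among the members and Psmb5, the subunit that Psmb8 replaces, was lower. Each window holds 250 bases before and 50 after the annotated start in RefSeq, build GRCm38.p6, with matches to the motifs named below in capitals. The Psmb9 window is chr17:34187281-34187580, minus strand, the Psmb8 window chr17:34197945-34198244, plus strand, and the Psmb5 window chr14:54617946-54618245, minus strand.
Psmb9: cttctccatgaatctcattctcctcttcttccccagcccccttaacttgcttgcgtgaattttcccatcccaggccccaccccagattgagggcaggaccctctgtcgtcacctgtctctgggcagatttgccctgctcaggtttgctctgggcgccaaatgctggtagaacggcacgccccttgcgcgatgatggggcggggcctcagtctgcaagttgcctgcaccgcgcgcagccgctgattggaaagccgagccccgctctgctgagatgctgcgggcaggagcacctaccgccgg
Psmb8: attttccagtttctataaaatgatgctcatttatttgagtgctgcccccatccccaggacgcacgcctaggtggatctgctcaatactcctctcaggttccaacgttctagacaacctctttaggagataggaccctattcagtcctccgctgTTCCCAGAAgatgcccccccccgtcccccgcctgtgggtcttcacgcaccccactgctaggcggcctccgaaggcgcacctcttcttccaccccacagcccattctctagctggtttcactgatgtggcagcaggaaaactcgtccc
Psmb5: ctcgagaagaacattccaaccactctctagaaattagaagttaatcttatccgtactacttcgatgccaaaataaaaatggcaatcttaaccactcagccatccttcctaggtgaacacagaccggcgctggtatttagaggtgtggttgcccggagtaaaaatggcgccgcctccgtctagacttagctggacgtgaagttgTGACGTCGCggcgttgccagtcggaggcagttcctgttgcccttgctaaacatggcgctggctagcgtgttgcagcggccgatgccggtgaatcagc
The windows were searched on both strands for the interferon-stimulated response element GAAANNGAAA, the gamma-activated sequence TTCNNNGAA, the antioxidant response element TGACNNNGC and the NF-κB site. Where a palindromic motif matched both strands at a place, it was counted once, and no matches of different motifs overlapped in the 3 printed windows. In Psmb8 the capitals mark a gamma-activated sequence that starts 97 bases before the start site, a motif held by 8.47% of first promoter windows of all 27025 genes. In Psmb5 they mark an antioxidant response element 47 bases before the start, a motif held by 12.5% of all genes. No exact match to these motifs was found in the Psmb9 window, and looser matches were not searched for. The NF-κB site was held by 0 of the 5 immunoproteasome and PA28 windows and 4 of 25 core and 19S windows, against 8.18% of all genes. The start sites of Psmb9 and Tap1, which encodes a chain of the peptide transporter, face away from each other with 225 bases between them, so 275 bases of their windows are the same DNA. Tap1 lies between Psmb9 and Psmb8, with 969 bases between its end and the start of Psmb8.

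Most members were expressed. A probe was called detected on an array at a detection p under 0.05, and tested if detected on at least 3 of the 6 arrays. Of the 49 members, 42 (85.7%) had a tested probe, against 49.3% of all named genes. The 7 without were Psma1, Psma3 and Psma6 of the alpha ring, the 19S ATPase gene Psmc6, the 19S subunit gene Psmd3, the assembly chaperone gene Psmg4 and Psmb11, a beta subunit of thymic epithelium. Their probes give no measurement here. Levels below are log2 intensities after background correction and quantile normalization, read from a gene's tested probe with the highest mean signal. Differences are on the same log2 scale, producing minus non-producing. Over the tested members the median SD between arrays of a group was 0.07, against 0.11 over all tested genes.

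With quantile normalization, the producing hybridoma had more transcript of all 3 immunoproteasome catalytic subunits. The call of Psmb10, at 0.24, was lost without any 1 array and with median scaling of the arrays. No change of PA28 passed the test, and the pattern over the rest of the proteasome was mixed. Of 42 tested members, 8 were higher, 5 were lower and 29 did not pass an adjusted p of 0.05 (limma, Benjamini-Hochberg over all tested probes). Over all 9395 tested genes 36.7% passed, 18.1% higher and 18.6% lower, so the members' 31.0% past the threshold was not above the background. The arrays of the groups did not overlap in 27 members (64.3%), 11 with higher and 16 with lower levels in the producing hybridoma, against 51.3% of all tested genes. The median difference was 0.24 over the 5 immunoproteasome and PA28 genes, -0.13 over the 26 tested core and 19S genes, and 0.0002 over all tested genes. With median scaling of the arrays instead of quantile normalization, the median of all genes moved to -0.23. The split of calls over all genes was then 12.5% higher, against 49.4% with quantile normalization, and 2 members (Psmb9 and Psmb8) were higher and 18 lower. Relative to that shift of all genes the immunoproteasome and PA28 median was 0.24 and the core and 19S median -0.07, with 5 members higher and 4 lower. The counts also moved when 1 array was left out, where 28.1% to 31.7% of all tested genes passed instead of 36.7%. Without producing array 1 or non-producing array 3, 5 members were higher. Without producing array 3 or non-producing array 2, 4 were higher. Without producing array 2 or 3 or non-producing array 2, 3 were lower.

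**Figure D1:**
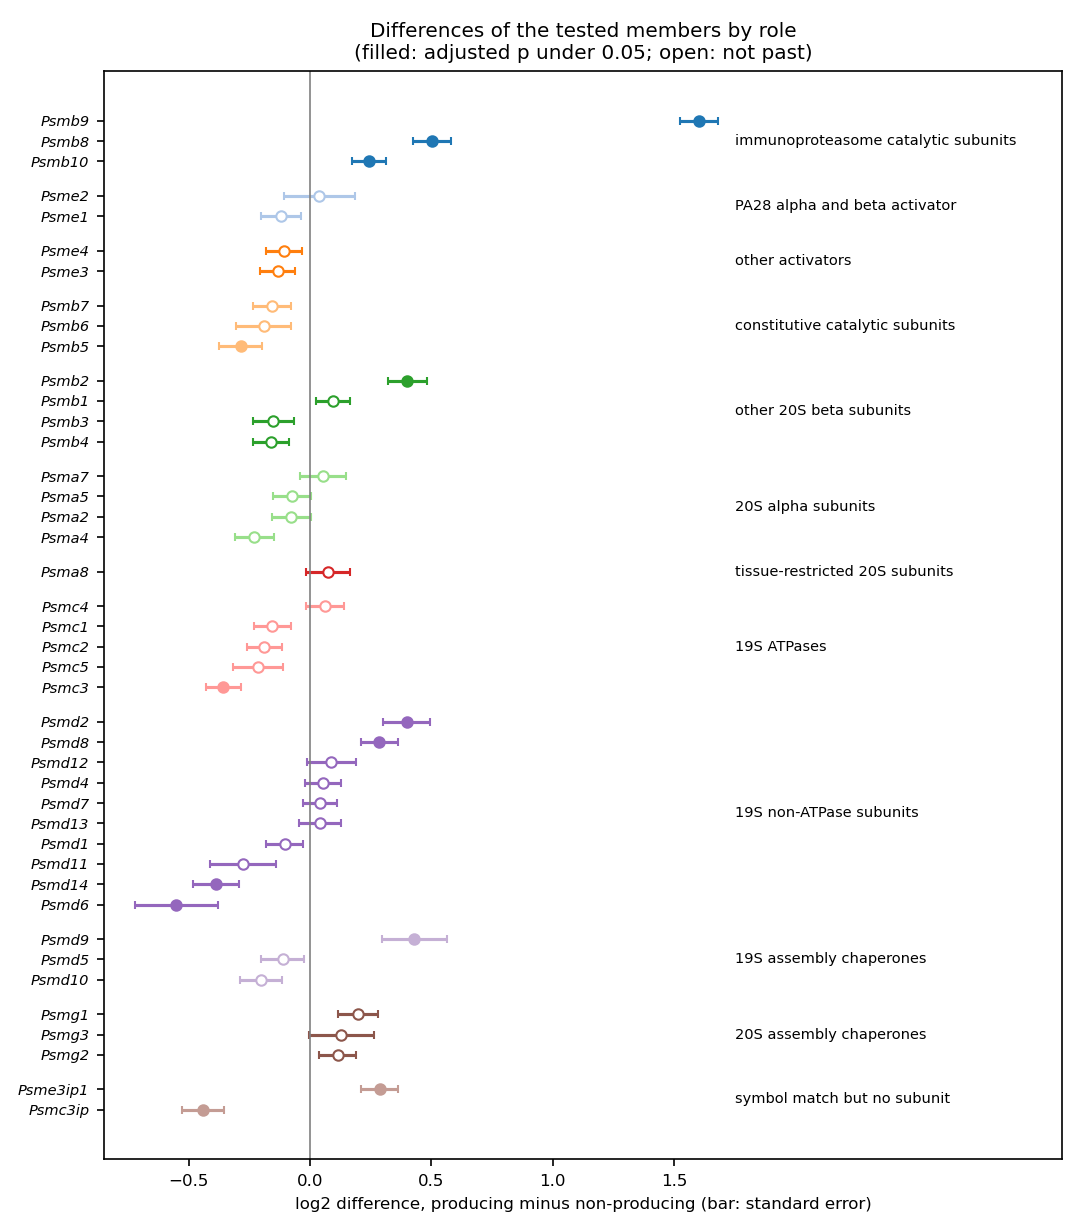
Log2 difference (producing minus non-producing, horizontal axis) of the 42 tested members, grouped by role, with bars for the standard error of the limma fit. Filled points passed an adjusted p of 0.05: the 3 immunoproteasome catalytic subunits lie right of 0 and Psmb9, at 1.60, stands apart from all other members.

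Psmb9 encodes the immunoproteasome subunit that takes the place of Psmb6. Its level was 10.94, 10.78 and 10.93 on the producing arrays and 9.31, 9.27 and 9.26 on the non-producing arrays. The groups did not overlap, and the spread within each was small beside the gap. The producing arrays were higher by 1.60 (SE 0.08), or 3.04-fold (limma, Benjamini-Hochberg adjusted p = 4.63e-06). Psmb9 was the only member to reach 2-fold in any setting tried. The range over the settings was 1.30 to 1.65.

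Psmb8 takes the place of Psmb5. Its level was 13.89, 13.84 and 13.81 on the producing arrays, against 13.34, 13.28 and 13.42 on the non-producing arrays. All 3 producing arrays were above all 3 others. They were higher by 0.50 (SE 0.08), or 1.42-fold (limma, Benjamini-Hochberg adjusted p = 0.00179). A dimmer probe of the gene differed by 0.90 and passed too.

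Psmb10, the replacement of Psmb7, had the smallest difference of the immune subunits. It read 12.64, 12.62 and 12.68 on the producing arrays and 12.40, 12.39 and 12.42 on the non-producing arrays. The groups were apart, by 0.24 (SE 0.07), or 1.18-fold (limma, Benjamini-Hochberg adjusted p = 0.0296). Its other probe, at 0.12, missed the threshold (limma adjusted p = 0.271). The call was lost when any 1 of the 6 arrays was left out (limma adjusted p 0.0556 to 0.0837).

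Neither subunit gene of PA28, the activator cap that opens the core without ATP, passed the test. Psme1 read 12.82, 12.97 and 12.80 on the producing arrays, against 13.05, 12.97 and 12.93 on the non-producing arrays. The groups overlapped, and the difference was -0.12 (95% interval -0.31 to 0.07, limma adjusted p = 0.293), with the other probe at 0.13. Psme2 read 9.58, 9.45 and 9.72, against 9.24, 9.82 and 9.58, a full overlap, with a difference of 0.04 (95% interval -0.30 to 0.37, limma adjusted p = 0.871). The genome also holds Psme2b, a gene alike in sequence, so which of them the Psme2 probe reads is uncertain. Both intervals end below 0.50, the difference of Psmb8. The 95% interval of Psmb8 itself, 0.32 to 0.68, overlaps that of Psme2.

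The 3 catalytic subunits of the constitutive core ran the other way or did not pass. Psmb5, which carries the chymotrypsin-like activity, read 10.56, 10.46 and 10.56 on the producing arrays and 10.73, 10.74 and 10.96 on the non-producing arrays. The groups did not overlap, and the difference was -0.29 (SE 0.09; limma, Benjamini-Hochberg adjusted p = 0.0392). That call held without non-producing array 1 and was lost when any of the other 5 was left out (limma adjusted p 0.0613 to 0.126). Psmb6, with the caspase-like activity, read 12.51, 12.45 and 12.68, against 12.52, 12.86 and 12.84. Its groups overlapped, with a difference of -0.19 (limma adjusted p = 0.235), and the other probe was at -0.07. Psmb7, with the trypsin-like activity, read 12.48, 12.42 and 12.42, against 12.50, 12.63 and 12.65, a difference of -0.16 that did not pass (limma adjusted p = 0.162). Of its 4 tested probes none passed, and all had a negative sign, but they ranged from -0.16 to -0.006.

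Within each array, the ratio of an immune subunit to the subunit it replaces was larger on every producing array than on every non-producing array for all 3 pairs. Set to 0 at the non-producing mean, the log2 ratio of Psmb9 to Psmb6 was 1.89, 1.79 and 1.71 on the producing arrays and 0.25, -0.13 and -0.12 on the non-producing arrays. The groups were 1.79 apart with a standard error of 0.14. For Psmb8 to Psmb5 they were 0.79 apart with a standard error of 0.06, and for Psmb10 to Psmb7 0.40 with a standard error of 0.06. The two-sided exact permutation p was 0.1 for each, and 0.1 after Benjamini-Hochberg over the 3 pairs. This is the smallest p that the test can give over the 20 splits of 3 against 3 arrays, so it cannot reach 0.05 here. A ratio of intensities shows unequal change of 2 transcripts and gives no ratio of molecules. Each gene was read by its brightest probe. The other probe of Psmb8 differed by 0.90, that of Psmb10 by 0.12 and that of Psmb6 by -0.07. Those of Psmb7 ranged from -0.16 to -0.006. Psmb9 and Psmb8 lie on chromosome 17, whose median difference was 0.30, and Psmb5 on chromosome 14, with -0.11. The part of these medians in the ratios was not tested.

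**Figure D2:**
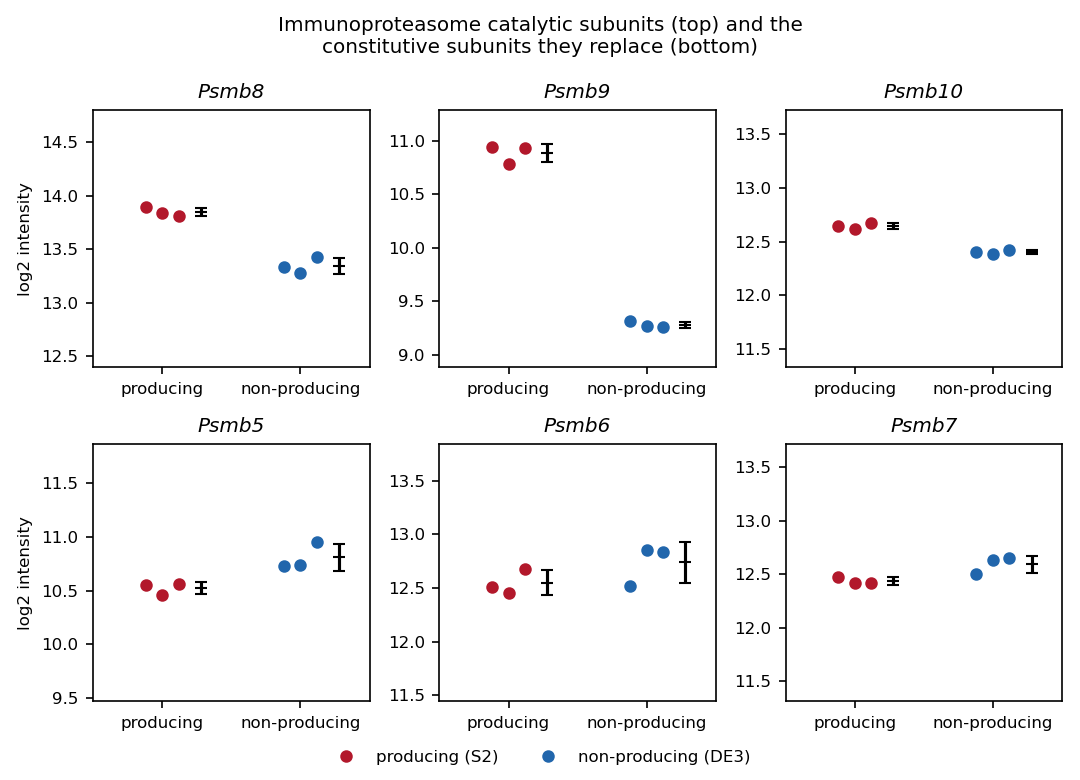
Log2 intensity (vertical axis, the same span in each panel) of the immunoproteasome catalytic subunits and, under each, the constitutive subunit it replaces. Points are arrays and bars are mean and SD (n = 3); Psmb9 shows the widest gap, and for the constitutive subunits the producing arrays overlap with the non-producing ones (Psmb6) or lie below them.

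Of the other beta subunits, which hold no active site, Psmb2 alone passed. It read 13.52, 13.51 and 13.65 on the producing arrays, against 13.08, 13.19 and 13.21 on the non-producing arrays. Every producing array was above every non-producing array, by 0.40 on average (SE 0.08; limma, Benjamini-Hochberg adjusted p = 0.00648), and its other tested probe gave 0.42 and passed. Psmb1, Psmb3 and Psmb4 were at 0.09, -0.15 and -0.16 and did not pass. Of the 4 alpha subunits tested, which form the gated outer rings of the core, none passed. They ranged from -0.23 for Psma4 to 0.05 for Psma7. Psma4 had an adjusted p of 0.0605 (limma) and passed without non-producing array 1 (limma adjusted p = 0.0392). Psma8, an alpha subunit of the testis, was dim on all arrays, with a difference of 0.07 that did not pass.

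In the 19S cap, Psmc3 was the ATPase gene that changed. The ATPases form the ring that unfolds substrates. Psmc3 read 12.18, 12.14 and 12.13 on the producing arrays and 12.55, 12.47 and 12.50 on the non-producing arrays. The groups were far apart for their spread, by -0.36 (SE 0.07; limma, Benjamini-Hochberg adjusted p = 0.00644). The other 4 ATPase genes tested ranged from -0.22 for Psmc5 to 0.06 for Psmc4 and did not pass.

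Of 10 tested non-ATPase genes of the cap, 2 were higher, 2 were lower and 6 did not pass. Over all tested genes 18.1% were higher and 18.6% lower, so these counts were near the background. Psmd2, a scaffold on which ubiquitin receptors dock, read 7.69, 7.57 and 7.59 on the producing arrays, against 7.06, 7.24 and 7.36 on the non-producing arrays. The groups did not overlap, and the difference was 0.40 (SE 0.10; limma, Benjamini-Hochberg adjusted p = 0.0143). Its other probe differed by 0.60 and passed. Psmd8 was the other increase, at 0.29 (limma adjusted p = 0.0195). The call of Psmd2 was lost without producing array 1 (limma adjusted p just above 0.05), and that of Psmd8 without producing array 1 or 3 or non-producing array 2 or 3 (limma adjusted p 0.0590 to 0.0630).

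Both decreases among the non-ATPase genes were read differently by a second probe. Psmd14, the deubiquitinase that takes ubiquitin chains off the substrate, read 10.08, 10.21 and 9.97 on the producing arrays, against 10.52, 10.56 and 10.35 on the non-producing arrays. These groups were separate, with a difference of -0.39 (limma, Benjamini-Hochberg adjusted p = 0.0152), but the other probe was at 0.17 and did not pass. Psmd6, a structural subunit of the lid, read 6.65, 6.59 and 6.31, against 7.46, 6.87 and 6.87. Its difference of -0.55 was the lowest of all members and also had the widest spread, (SE 0.17; limma, Benjamini-Hochberg adjusted p = 0.0378). The other probe of Psmd6 was at 0.13 and did not pass. The call of Psmd14 was lost without non-producing array 2 (limma adjusted p = 0.0561), and that of Psmd6 without producing array 2 or 3 or non-producing array 1 (limma adjusted p 0.0628 to 0.108).

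Among the helpers of assembly, Psmd9 passed. It is a chaperone of the ATPase ring that leaves before the cap is complete. Psmd9 read 7.16, 7.17 and 7.65 on the producing arrays, against 6.88, 6.95 and 6.86 on the non-producing arrays. Producing array 3 was the high one, and without it the difference of 0.43 became 0.27 and no longer passed (limma adjusted p = 0.0523). The call was also lost without any 1 of the non-producing arrays (limma adjusted p 0.0796 to 0.102), and the other probe was at -0.12. The other chaperones of the cap were Psmd5, at -0.11, and Psmd10, at -0.20, and the brightest probe of neither passed. The 3 tested chaperones of the core, Psmg1, Psmg2 and Psmg3, were at 0.20, 0.11 and 0.13 and did not pass. Nor did the activator genes Psme3, a nuclear relative of PA28, at -0.13, and Psme4, a large single-chain activator, at -0.11.

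A pair of genes matched the symbol rule but encode no proteasome subunit. Psmc3ip, which acts in meiotic recombination, read 10.52, 10.56 and 10.60 on the producing arrays and 10.86, 11.07 and 11.08 on the non-producing arrays. The groups were apart, by -0.44 (SE 0.09; limma, Benjamini-Hochberg adjusted p = 0.00555). Psme3ip1, which binds Psme3, was at 0.29 (limma adjusted p = 0.0208), a call lost without producing array 2 or 3 or non-producing array 2 (limma adjusted p 0.0607 to 0.0695). Median scaling without removal of the shift of all genes turned Psme3ip1 to -0.01. Without this pair 7 members were higher and 4 were lower.

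The core and 19S genes changed in both directions. Of the 26 tested, 3 were higher (Psmb2, Psmd2 and Psmd8), 4 were lower (Psmb5, Psmc3, Psmd6 and Psmd14) and 19 did not pass. This was 11.5% higher and 15.4% lower, both under the background of 18.1% and 18.6%. The sign was negative in 16 of the 26, or 61.5%, against 4694 of all 9395 tested genes. Arrays of the groups did not overlap in 12 genes with lower and 4 genes with higher levels in the producing hybridoma. That is 46.2% and 15.4%, where 25.9% and 25.5% of all genes were separated that way. By the brightest probe, Psmd6, at -0.55 (SE 0.17), was larger in size than Psmb8, at 0.50 (SE 0.08). The other probe of Psmd6 was at 0.13 and that of Psmb8 at 0.90, and the call of Psmd6 was lost without some single arrays. All 7 that passed were larger in size than Psmb10, at 0.24, but passing the threshold itself favours larger differences. The lists were described and not tested against each other, since the members were chosen with results of these data known.

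Probes of a member did not always agree. Of 21 members with more than 1 tested probe, 3 (Psmb8, Psmb2 and Psmd2) passed on all of them, 7 on some and 11 on none. In 8 of the 21 the signs differed between probes. The same counts were not made over all genes, so whether the members differ from other genes in this is not known. Psmb9 has a single probe, so its difference, the largest of all, had no check by another. Psmd10 and Psmd11 each passed on a dimmer probe alone, at -0.27 and -0.31 (limma adjusted p = 0.0371 and 0.0241).

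**Figure D3:**
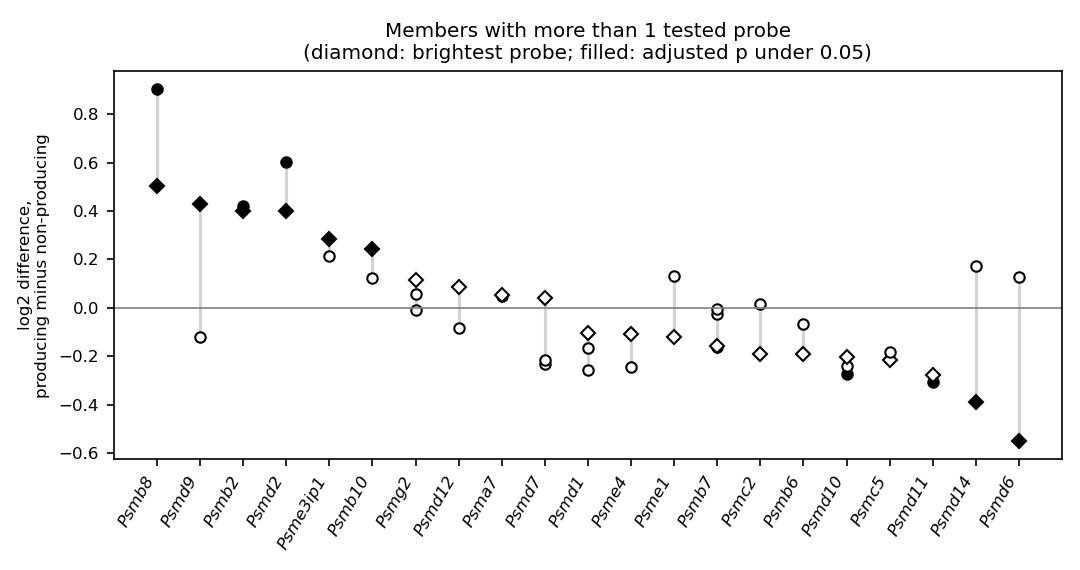
Log2 difference (producing minus non-producing, vertical axis) of each tested probe for the 21 members with more than 1. Diamonds are the brightest probe and filled symbols passed an adjusted p of 0.05; Psmb8, Psmb2 and Psmd2 are filled on all probes, while Psmd9, Psmd14 and Psmd6 have probes on both sides of 0.

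Chromosomes differed as a whole, and the calls went with them in part. The median difference was above 0.2 on 4 chromosomes, at 0.24 on chromosome 16, 0.27 on chromosome 4, 0.30 on chromosome 17 and 0.31 on chromosome 19, and between -0.19 and 0.01 on those of all other tested members. The 6 tested members on chromosomes 4, 16 and 17 all had a positive sign, and Psmb8, Psmb9, Psmb2 and Psmd2 of them passed. Psmb1 and Psmg1 were the others, at 0.09 and 0.20. Of all 482 tested genes of chromosome 17, 402 had a positive sign and 243 (50.4%) were higher. The same was not counted for chromosomes 4 and 16. The other 36 members had 4 higher, 5 lower and a median of -0.11. With each chromosome's median removed, Psmb9 was at 1.30 and still passed (limma adjusted p = 1.53e-05), while Psmb8 was at 0.20 (0.0907), Psmb2 at 0.13 (0.280) and Psmd2 at 0.16 (0.261). Psmb5 on chromosome 14, whose median was -0.11, was at -0.17 (0.183), and Psmd6 on the same chromosome at -0.44 (0.0887). Psmc3 and Psmb10, on chromosomes 2 and 8 with medians of -0.01, kept their calls.

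Psmb9 also stood above the genes around it. Of the 21 named genes next to Psmb8 and Psmb9, 10 on each side and Tap1 between them, 11 were tested and 6 of these were higher, 0 lower and 5 not past. Their median was 0.31, about that of chromosome 17 (0.30), where 50.4% of 482 tested genes were higher. Tap1 was at 0.51 (limma adjusted p = 0.00500) and Tap2, the gene of the other transporter chain, at 0.14, which did not pass. The part of the chromosome-wide difference in these results was not tested.

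**Figure D4:**
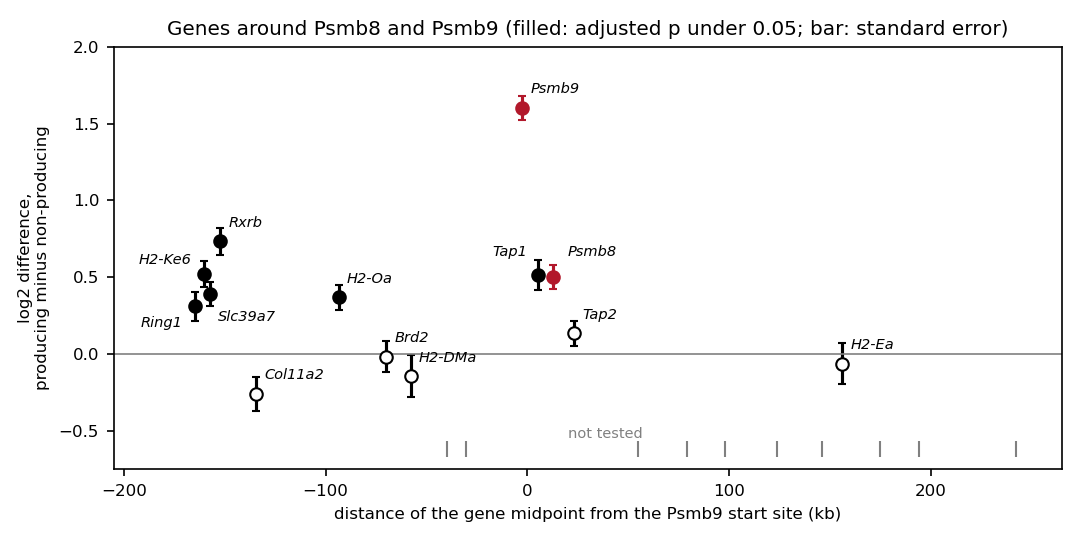
Log2 difference (producing minus non-producing, vertical axis, bars are standard errors) of the tested genes around Psmb9 and Psmb8 on chromosome 17, by distance from the Psmb9 start site in kb. Psmb9 at 1.60 lies above its tested neighbours, Tap1 and Psmb8 lie at 0.51 and 0.50, and filled points passed an adjusted p of 0.05.

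Genes that act beside the proteasome gave no common direction. Of 11 tested partners outside the symbol rule, 1 was higher, 2 were lower and 8 did not pass, and the list's median was -0.04. Counts in this and the following small lists are to be read beside 18.1% higher and 18.6% lower of all tested genes. Rad23b, a shuttle for ubiquitinated proteins, was higher by 0.43 (limma adjusted p = 0.00831). Ube3a, a ubiquitin ligase that associates with the proteasome, and Ubqln4, another shuttle, were lower, at -0.84 and -0.83 (limma adjusted p = 0.000207 and 0.00245). The maturation factor Pomp, which the immunoproteasome needs for assembly, was at 0.08 and did not pass. Of 4 tested genes of ubiquitin activation and the p97 complex, which extracts substrates for the proteasome, Vcp was higher (0.47, limma adjusted p = 0.00186) and Ufd1 too (0.38, 0.0202). Nploc4 was lower, at -0.59 (limma adjusted p = 0.000752). The call of Ufd1 was lost without producing array 1 or 3 or non-producing array 1 or 3 (limma adjusted p 0.0513 to 0.0671). With chromosome medians removed Rad23b and Vcp, both on chromosome 4, were at 0.16 and 0.20 and Ufd1, on chromosome 16, at 0.14, and none passed (limma adjusted p = 0.239, 0.0780 and 0.334). With median scaling they were at 0.15, 0.25 and 0.11, and none passed (limma adjusted p = 0.445, 0.103 and 0.495).

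Nfe2l1, the transcription factor that raises proteasome genes when the protease is blocked, was at -0.04 and did not pass. Of the 3 genes tested on its list, Mafg, which pairs with it on DNA, was higher by 0.45 (limma adjusted p = 0.00215) by the brightest probe, and the second probe gave 0.10, not past the threshold. With median scaling Mafg was at 0.17 and did not pass (limma adjusted p = 0.298). Antioxidant response elements, the motif that such pairs bind, were found in the promoter windows of 4 of 25 core and 19S genes with a window, against 12.5% of all genes.

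Regulators of the immunoproteasome changed in both directions. Of 8 tested genes of interferon-γ and NF-κB signalling, 4 were higher, 1 was lower and 3 did not pass, beside 18.1% higher and 18.6% lower of all tested genes. The median was 0.29. The receptor chain gene Ifngr1 was higher by 0.63 (limma adjusted p = 0.00495), the kinase gene Jak2 by 0.61 (0.000694) and Irf1, a transcription factor that raises Psmb9 and Tap1, by 0.44 (0.00369). Of the 5 probes of Irf1, the one with the median difference, 0.36, did not pass (limma adjusted p = 0.0660). Rela, another NF-κB subunit, was higher by 0.31 (limma adjusted p = 0.0122). It lies with Jak2 on chromosome 19, whose median was also 0.31, and Jak2 was at 0.30 with chromosome medians removed (limma adjusted p = 0.0221). With median scaling Irf1 was at 0.19 and Jak2 at 0.32, and both lost their calls (limma adjusted p = 0.275 and 0.0518). Relb, an NF-κB subunit, was lower, at -0.65 (limma adjusted p = 0.000918). Of the 6 tested genes of peptide transport and trimming, Tap1 and Tapbp, the gene of the loading factor tapasin (1.14, limma adjusted p = 7.43e-05), were higher and 4 did not pass. Both lie on chromosome 17, and with chromosome medians removed Tap1 was at 0.21 (limma adjusted p = 0.145) and Tapbp at 0.84 (0.000434). With median scaling Tap1 was at 0.22 and did not pass (limma adjusted p = 0.166). An interferon-stimulated response element was found in 1 of the 5 immunoproteasome and PA28 windows, that of Psme1, in 2 of 25 core and 19S windows (Psmb3 and Psmd4) and in 5 of 41 member windows, against 3.49% of all genes.

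Several measures of the whole arrays bear on these values. Mean signal was 399 to 482 on the producing and 505 to 559 on the non-producing arrays, and 36.9% to 37.4% against 38.0% to 39.4% of probes were detected. Correlations over tested probes were 0.995 to 0.997 within a group and 0.977 to 0.981 between groups. The column names place the 6 arrays on the same chip, each group in neighbouring positions, so the effects of position and of group cannot be told apart. The labels name the cells only as hybridoma. Of markers with a probe, 6 of 6 T cell genes, 0 of 4 B cell genes, 1 of 7 myeloid, 1 of 6 stromal and 1 of 3 erythroid genes were tested as detected. Some of them differed between the hybridomas (limma). The T cell receptor complex genes Cd3d and Cd3g were lower in the producing one, at -0.996 and -0.672. Cd247 and the kinase gene Zap70 were higher, by 0.54 and 0.30, though the probes of Cd247 ranged from -0.25 to 0.54. The other T cell markers, Cd3e and Lat, were at -0.04 and -0.06 and did not pass. Pdgfrb, the stromal marker, was higher by 0.49. Lyz1, the myeloid one, was lower, at -1.07, but was dim and detected on only 3 of the 6 arrays. It read 4.41, 4.57 and 4.60 on the producing and 5.61, 5.53 and 5.64 on the non-producing arrays. The size of its difference is thus uncertain. The part of these differences in the results on the proteasome was not tested.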

How the data were processed

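Total RNA of 6 hybridoma samples was labelled with biotin and measured on Illumina bead arrays. Per the file headers, the deposited table without normalization holds average signal intensity per probe and array and a detection score, which rises with signal to 1 and was taken to be 1 minus a detection p-value. Scanner software, background settings and a genome build were not given in the sources used here. No signal was below 35.5, as in signals without background subtraction. The authors' second deposited table holds intensity found from its values to be quantile normalized on a linear scale, with column medians of 66.7, and served as an alternative.

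Signals were corrected and quantile normalized with neqc (limma 3.58.1, R 4.3.3; negative controls inferred from detection p, offset 16). The 17445 probes with detection p under 0.05 on at least 3 arrays entered a limma fit (lmFit, eBayes; two-sided, no covariates), Benjamini-Hochberg over all tested probes. The code was tested on simulated data. Probe symbols came from the platform annotation: 34885 probes had 1 symbol, 18 several and 10378 none listed. Chromosomes came from RefSeq, GRCm38.p6. The members and gene lists were chosen with earlier results of these data known. Psme3ip1 and its label as no subunit were added to the roles once the members were listed. Array values are given for the immunoproteasome, PA28 and constitutive catalytic genes and the 5 largest changes each way; other roles by their lowest and highest; pathway lists by up to 4 genes past the threshold. Pomp, Tap2 and Nfe2l1 were named after their values were seen. Alternatives covered background correction, normalization, the authors' values, the filter, the probe of a gene, a replicate block, chromosome medians and each array left out. The number of arrays limits the precision.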

Additional observations from a re-analysis of the deposited data

How the results depend on the processing

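Of 13 members past the threshold, 3 (Psmb9, Psmc3 and Psmc3ip) kept their call in every setting run, and of 29 not past, 15 stayed so. The same was not counted over all tested genes, so whether members were less stable than other genes is not known. The direction of Psmb8, Psmb9 and Psmb10 was positive in every setting, although Psmb10 was at 0.01 with median scaling. That scaling gave 20 members past the threshold, 2 higher and 18 lower, an immunoproteasome and PA28 median of 0.0066, a core and 19S median of -0.31, and turned Psme3ip1 to -0.0069. With the shift of all genes removed, which was added after seeing the data, 5 members were higher and the core and 19S median was -0.0730. Without a filter on dim probes 3 members were lower and the core and 19S median was -0.0771, with more dim probes in the list. With chromosome medians removed 3 members were lower, and the medians were 0.20 for immunoproteasome and PA28 and -0.0741 for core and 19S; the cause was not tested. Leaving out each array in turn gave 7 to 11 members past the threshold, 4 to 6 higher and 3 to 5 lower, medians of 0.23 to 0.26 and of -0.14 to -0.10, and 2644 to 2976 of all genes, against 3448. Other settings gave 2522 to 3839 genes. Detection on all 6 arrays left out Psma8. The labels do not say whether the replicate numbers pair the arrays, and 3 arrays per group are too few to settle it. Deviations of same-numbered arrays correlated at -0.04, -0.16 and 0.09, and with the number as a replicate block 11 members passed, 7 higher and 4 lower, of 3019 genes. Psmb10 (adjusted p = 0.0733) and Psmb5 (0.0578) lost their calls there (limma).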
